A study of Homo sapiens with 6 samples.

Results

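Zinc transporters and metallothioneins were taken as the gene rows whose symbol is SLC30A or SLC39A and a number, MT1 and 1 letter, MT2A, MT3 or MTF1, without antisense or pseudogene rows. This rule found 35 of the 29436 gene symbols in the count table: 10 SLC30A genes, 14 SLC39A genes, 10 metallothioneins and MTF1. They were compared between 3 libraries of hemogenic endothelial cells grown with alpha lipoic acid (ALA, 100 µg/ml in the hematopoietic inducing medium) and 3 libraries of the same cell type grown without it (Ctrl, called untreated here). All cells derive from H1, an established line of human embryonic stem cells, and were differentiated on AGM-S3 stroma. Hemogenic endothelium, the endothelium from which blood cells arise, was sorted as CD34+CD43-KDR+CD144+ cells on day 8, and polyA RNA of 1000 cells per library was amplified as cDNA. The labels do not say whether the replicates came from separate cultures, so the p-values rest on library-to-library variation alone, which may be of technical origin.

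Zinc is a cofactor of many enzymes and of zinc finger transcription factors, and cells keep its free level in the cytosol low. ZIP proteins (SLC39A) move zinc into the cytosol, from outside the cell or out of organelles, and ZnT proteins (SLC30A) move it out of the cytosol. Metallothioneins are small cysteine-rich proteins that bind zinc and copper, and MTF1 is the zinc-sensing transcription factor that switches on metallothionein genes and SLC30A1 when zinc is high.

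Total counts were 31404734 to 41351951 in lipoic acid libraries and 30041494 to 32034433 in untreated libraries. Even numbers made up 99.13% to 99.34% of the nonzero counts in all lipoic acid libraries and in untreated replicate 1, but 52.01% in untreated replicate 2 and 51.97% in replicate 3. This split partly follows the groups, so its effect cannot be fully told apart from that of lipoic acid. Raw counts are given as deposited and were not halved unless so stated. Levels are in CPM (counts scaled to library size). All 12 pan-endothelial markers passed the filter on low counts, and 2 rose, 6 fell and 4 were not called, with a summed level of 10300 to 10600 CPM in lipoic acid libraries and 11900 CPM in untreated libraries. Of the genes of the sort, CD34 fell to 813 ± 10.3 CPM with lipoic acid, against 1451 ± 41 CPM without, and CDH5, which encodes CD144, fell to 556 ± 18.2 CPM, against 864 ± 127 CPM without. KDR rose to 4812 ± 133 CPM with lipoic acid, against 4113 ± 229 CPM without (SD, n = 3 each, edgeR adjusted p at most 0.00409 for the 3 genes), and no library held a count of SPN, the gene of CD43. Of 10 blood and myeloid markers 5 had no count in any library (PTPRC, SPN, CD68, MPO and SPI1), and 3 were tested, of which 1 fell. That gene, LAPTM5, stood at 233 to 260 CPM with lipoic acid and 282 to 296 CPM without, and the others stayed under 2 CPM. Of 13780 genes that passed the filter, 47.4% were called, that is, had a Benjamini-Hochberg adjusted p under 0.05 in the edgeR quasi-likelihood test, with 24.2% higher and 23.3% lower in lipoic acid libraries.

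Of the 35 members, 21 passed the filter: 9 rose, 4 fell and 8 were not called. Over all tested genes, 24.2% were called higher and 23.3% lower. SLC39A2 and SLC39A5 passed the filter through the lipoic acid libraries alone, so they could only be tested because they differed. Their calls are therefore no separate support, and both genes are included in the counts and the median given here. The median fitted log2 fold change over the 21 was 0.23, against -0.01 over all tested genes. Called and at least 2-fold higher were 4 members (SLC39A14, SLC39A2, SLC39A5 and MT2A), and 7.92% of all tested genes were so. No called member was 2-fold lower, and 5.93% of all tested genes were. The 3 lipoic acid and 3 untreated levels did not overlap in 13 of the 21 tested members, close to the share of 59.1% over all tested genes. By family, the ZIP genes had 7 rises and 2 falls among 12 tested, the ZnT genes 1 rise and 2 falls among 6, and the metallothioneins 1 rise among 2, while MTF1 was not called. In bulk libraries, fewer cells that express a gene and less of its RNA per cell cannot be told apart.

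**Figure D1:**
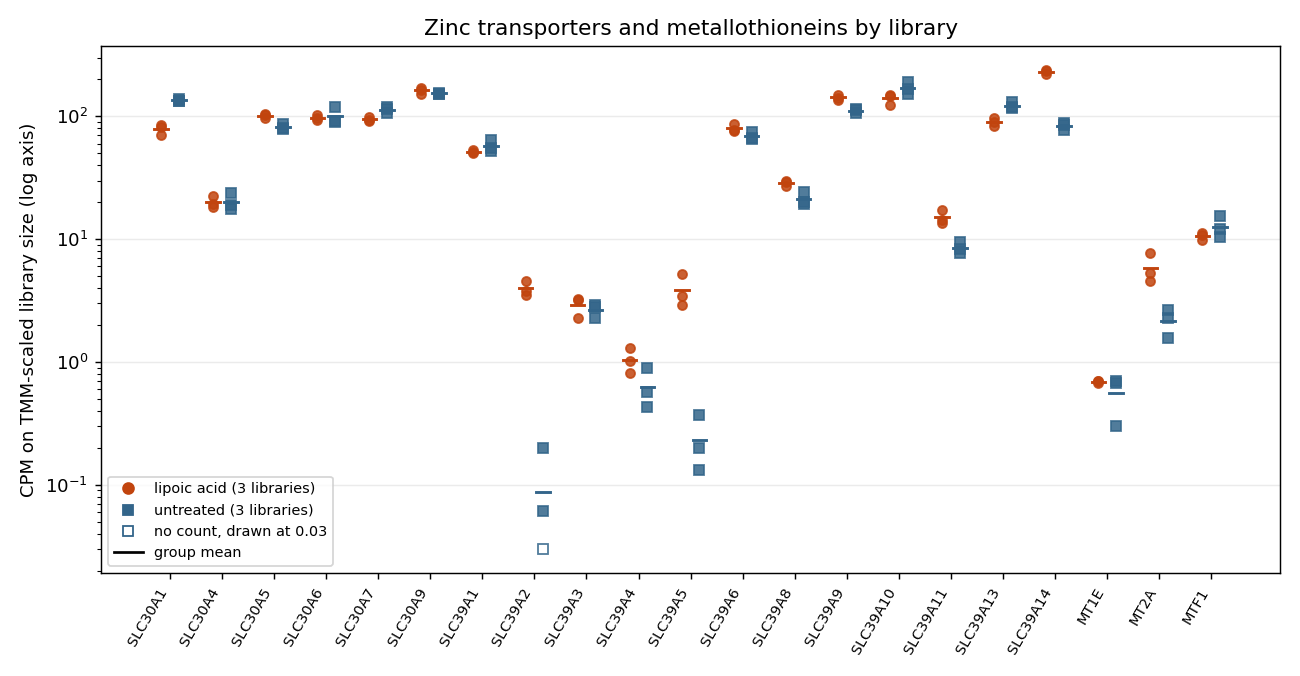
Level of each tested member in each library, in CPM on a log axis, with lipoic acid libraries as circles left of untreated libraries as squares and group means as lines. The unfilled square marks an untreated library with no count of SLC39A2, and SLC39A2 and SLC39A5 show the widest gaps between the groups.

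SLC39A14 had the largest change among the abundant transporters. It encodes ZIP14, an importer of zinc at the plasma membrane that also carries iron and manganese (chromosome 8, 22367249 to 22434129, GRCh38). SLC39A14 stood at 232, 222 and 239 CPM in lipoic acid libraries, against 76.9, 88.0 and 84.4 CPM in untreated libraries. Every lipoic acid library lay far above every untreated one. The fitted fold was 2.78 (log2 1.47 ± 0.0678 SE, edgeR adjusted p = 3.14e-07), and 6.12% of all tested genes had a higher fitted fold. Its closest relative among the ZIPs, SLC39A8 (ZIP8, which also carries iron and manganese), stood at 27.0, 29.4 and 29.96 CPM in lipoic acid libraries and at 19.99, 24.2 and 19.3 CPM in untreated libraries. SLC39A8 rose 1.36-fold (edgeR adjusted p = 0.00639), without overlap between the groups, but lost its call after correction for GC content and length (adjusted p = 0.0671).

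SLC39A2 and SLC39A5 were nearly absent from untreated libraries. SLC39A2, which encodes ZIP2, a plasma membrane importer, had 152, 112 and 190 counts in lipoic acid replicates 1 to 3 and 2, 0 and 6 counts in untreated replicates 1 to 3. On the CPM scale SLC39A2 was at 3.97 ± 0.549 with lipoic acid and 0.0870 ± 0.102 without (SD, n = 3 each). The fitted fold of SLC39A2 was 44.2 and rests on those few untreated counts: it was 113 without untreated replicate 3. SLC39A5 encodes ZIP5, an importer known from gut, pancreas and liver epithelium. It had 138, 166 and 120 counts in lipoic acid replicates 1 to 3 and 12, 4 and 6 counts in untreated replicates 1 to 3. SLC39A5 stood at 3.86 ± 1.23 CPM with lipoic acid and 0.234 ± 0.122 CPM without. Its fitted fold was 16.1, and 10.4 in the 4 libraries of even counts. The only untreated library among those 4 is replicate 1. Even with lipoic acid both genes stayed low, at 2.52 (SLC39A2) and 1.33 (SLC39A5) CPM per kb of exon, against 33.3 for SLC39A14.

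Transcripts used as markers of endoderm and liver also differed between the groups. Among the endoderm and hepatic markers 9 of 10 tested rose and none fell. The shares over all tested genes, for this list and those below, were 24.2% higher and 23.3% lower. The summed level of the 12 listed was 152 to 228 CPM in lipoic acid libraries, against 28.7 to 41.6 CPM in untreated libraries. AFP, the fetal serum protein alpha-fetoprotein, was at 50.4, 77.5 and 52.3 CPM in lipoic acid libraries and 4.74, 7.51 and 5.28 CPM in untreated libraries. ALB, albumin, stayed at 0.199, 0 and 0.580 CPM in lipoic acid libraries and 0.0615, 0 and 0 CPM in untreated libraries, and SERPINA1 had no count in any lipoic acid library. Of 7 tested epithelial markers 5 rose and 1 fell (sums of 462 to 531 CPM with lipoic acid and 297 to 329 CPM without). CDH1, which encodes E-cadherin and had the largest fold of them, was at 11.3, 9.49 and 12.1 CPM in lipoic acid libraries. In untreated libraries CDH1 was at 0, 0 and 0.0332 CPM. CLDN7 fell to 53.9 ± 2.94 CPM with lipoic acid, against 76.0 ± 4.14 CPM without (SD, edgeR adjusted p = 0.000426). EPCAM was not called, at 5.45 ± 0.725 CPM with lipoic acid and 6.32 ± 1.59 CPM without. Lipoic acid replicate 2 was the highest of its group for AFP, SLC39A5 (5.25 CPM) and MT2A (7.72 CPM) and the lowest for SLC39A2 (3.54 CPM) and SLC39A14 (222 CPM). Which cells in the sorted samples carried these marker transcripts cannot be told from bulk libraries and was not tested. Of 10 mesenchymal markers 1 rose and 5 fell (sums of 1480 to 2030 CPM with lipoic acid and 1920 to 2560 CPM without). Whether the shifts in these marker lists, or those in the endothelial genes given above, bear on the levels of any zinc gene was not tested.

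Of the other plasma membrane ZIP genes that were tested, 1 rose, 1 fell and 3 were not called. SLC39A10 encodes ZIP10, an importer that in zebrafish and mouse is repressed when zinc is high. It stood at 146, 124 and 150 CPM in lipoic acid libraries, against 153, 192 and 169 CPM in untreated libraries. SLC39A10 fell 1.22-fold (edgeR adjusted p = 0.0297), and the call was lost in 6 of 16 other settings, among them those without lipoic acid replicate 1 (0.0626) or 2 (0.134), and without untreated replicate 2 (0.0588) or 3 (0.0689). SLC39A6 encodes ZIP6, which pairs with ZIP10. It was at 77.5, 87.2 and 76.1 CPM with lipoic acid and 65.2, 66.2 and 74.3 CPM without, a rise of 1.17-fold (edgeR adjusted p = 0.0387). The call of SLC39A6 was lost in 6 of 16 settings too, among them those without lipoic acid replicate 1 (0.0583) or 2 (0.127) or untreated replicate 1 (0.091) or 2 (0.0588). SLC39A1, the widely expressed importer ZIP1, was at 51.4, 50.3 and 53.5 CPM with lipoic acid and 55.7, 63.8 and 52.0 CPM without, and the groups overlapped (log2 -0.14 ± 0.0837 SE, adjusted p = 0.179). The annotated gene AL358472.7 shares 60.8% of the exonic length of SLC39A1 on the same strand, so its counts are uncertain. SLC39A3 and SLC39A4, importers of the same group, stayed at 3.24 CPM or less in every library and were not called. SLC39A4 had a fitted log2 fold change of 0.72 ± 0.457 SE (edgeR adjusted p = 0.215), and SLC39A3 one of 0.12 ± 0.261 SE (adjusted p = 0.725), so differences of some size could not be told from the spread at these low counts.

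ZIP proteins of the Golgi and endoplasmic reticulum release zinc from the secretory pathway, and their genes split. SLC39A13 encodes ZIP13, whose loss causes a connective tissue disorder in human and mouse. It stood at 96.9, 83.2 and 89.6 CPM in lipoic acid libraries, against 131, 119 and 117 CPM in untreated libraries. SLC39A13 fell 1.36-fold (edgeR adjusted p = 0.00101), and the groups did not overlap. SLC39A9, which encodes ZIP9, was at 137, 149 and 142 CPM with lipoic acid and at 107, 114 and 112 CPM without. SLC39A9 rose 1.29-fold (edgeR adjusted p = 0.000974), although 5.23% of its exonic length lies opposite exons of ERH and the strand setting of the counting was not given. SLC39A11, which encodes ZIP11, was at 13.6, 17.3 and 14.3 CPM with lipoic acid and at 8.36, 7.71 and 9.54 CPM without, a rise of 1.76-fold (edgeR adjusted p = 0.00139). All lipoic acid libraries lay above all untreated ones for SLC39A9 and SLC39A11, and below them for SLC39A13.

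SLC39A7 could not be read from these counts. It encodes ZIP7, the main zinc release channel of the endoplasmic reticulum and a gene of wide expression, yet had 2, 4 and 4 counts in lipoic acid libraries and 6, 6 and 3 counts in untreated libraries. The 11 other protein-coding genes of the count table within 100 kb of SLC39A7 on chromosome 6 were low as well, with 9 of them under 10 CPM in every library. The share of all genes under 10 CPM was not measured, and of all 29436 symbols 13780 passed the filter, so low levels are common. RPS18, a ribosomal protein gene among them, lay at 3.39, 3.22 and 2.27 CPM in lipoic acid libraries. In untreated libraries RPS18 lay at 2.75, 14.1 and 12.1 CPM, highest in the libraries whose counts were not mostly even. The other 30 genes of small ribosomal subunit proteins had a median of 301.4 CPM (all without TMM scaling). Low values were thus also found at neighbouring genes, RPS18 among them, and their cause was not tested.

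SLC30A1 had the largest fall of all tested members. It encodes ZnT1, the zinc exporter of the plasma membrane (chromosome 1, 211571568 to 211578742, GRCh38). SLC30A1 stood at 81.6, 70.3 and 84.8 CPM in lipoic acid libraries, against 134, 138 and 133 CPM in untreated libraries. The groups were far apart, with the untreated libraries close together. The fitted fall was 1.71-fold (log2 -0.77 ± 0.0763 SE, edgeR adjusted p = 4.08e-05), and 10.4% of all tested genes had a lower fitted log2 fold change.

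ZnT5, ZnT6 and ZnT7 load zinc into the early secretory pathway, where it is built into enzymes such as alkaline phosphatase, and ZnT5 works as a dimer with ZnT6. SLC30A5 was at 102, 104 and 97.8 CPM in lipoic acid libraries and at 80.3, 86.8 and 78.6 CPM in untreated libraries. SLC30A5 rose 1.24-fold without overlap (edgeR adjusted p = 0.00359), lost its call after correction for GC content and length (adjusted p = 0.221), and lies opposite exons of AC010273.1 over 9.2% of its exonic length. SLC30A7 moved the other way, at 94.1, 90.9 and 98.9 CPM with lipoic acid and 114, 107 and 120 CPM without, a fall of 1.20-fold (edgeR adjusted p = 0.00959). SLC30A6, the partner of SLC30A5, was at 92.5, 102 and 96.9 CPM with lipoic acid and 89.8, 119.5 and 92.1 CPM without, and the groups overlapped (log2 -0.05 ± 0.104 SE, adjusted p = 0.722). SLC30A9, which encodes the mitochondrial ZnT9, was at 153, 170 and 165 CPM with lipoic acid and 153, 156 and 153 CPM without (log2 0.08 ± 0.0602 SE, adjusted p = 0.323). SLC30A4, a transporter of vesicles, was at 18.2, 19.5 and 22.7 CPM with lipoic acid and 18.9, 17.7 and 23.8 CPM without, with group means of 20.1 CPM each.

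The remaining ZnT genes were at or near 0. SLC30A2 and SLC30A8, the transporter of insulin granules, had no count in any library, nor had SLC39A12 among the ZIP genes, which allows up to 0.0532 CPM over the lipoic acid and 0.039 CPM over the untreated libraries (3 counts, with even counts halved, counting error only). SLC30A3, which loads synaptic vesicles in neurons, had 2 counts in untreated replicate 1 and none elsewhere. SLC30A10, a manganese exporter, had 2 counts over the lipoic acid libraries and 14 over the untreated libraries. With even counts halved these were 1 and 10, a ratio of 0.136 with a 95% counting interval of 0.00314 to 0.958.

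**Figure D2:**
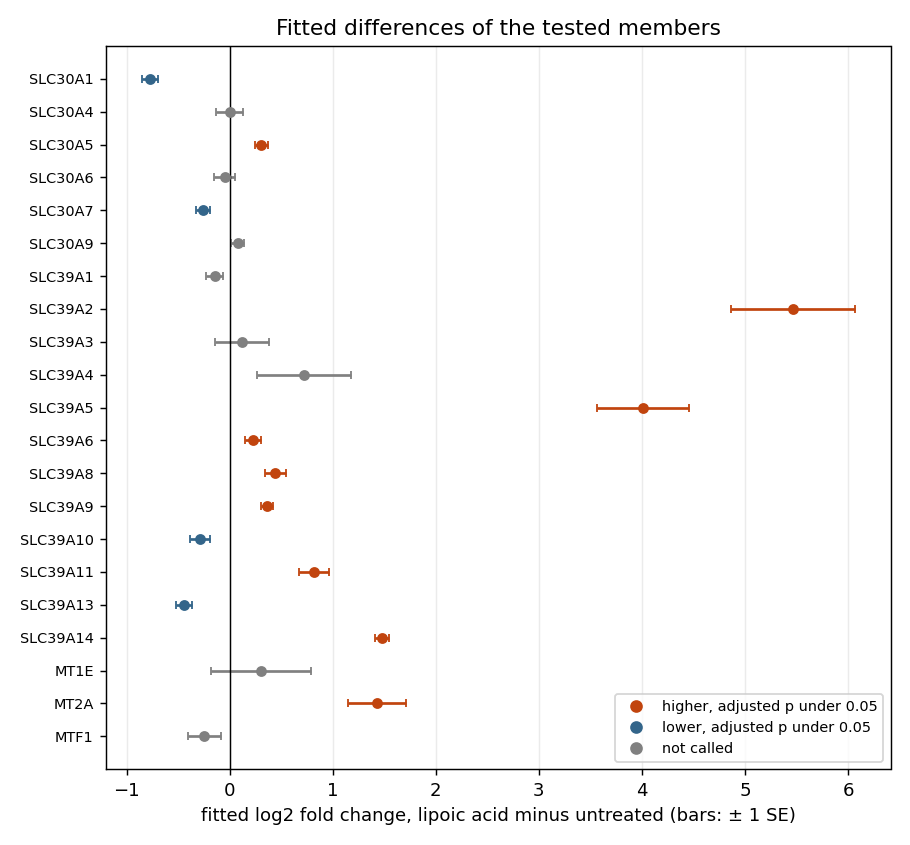
Fitted log2 fold change of each tested member, lipoic acid minus untreated, with bars of 1 SE, in the order ZnT, ZIP, metallothioneins and MTF1 from top to bottom. SLC30A1 lies furthest to the left at -0.77, and SLC39A2 at 5.46 and SLC39A5 at 4.01 lie furthest to the right. SLC39A2 has the widest bar (0.601), followed by MT1E (0.488), SLC39A4 (0.457) and SLC39A5 (0.443).

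Metallothionein transcripts were scarce in every library. MT2A, the most abundant of them, had 184, 244 and 218 counts in lipoic acid replicates 1 to 3 and 74, 47 and 80 counts in untreated replicates 1 to 3. These were 4.58, 7.72 and 5.27 CPM in lipoic acid libraries, against 2.28, 1.56 and 2.66 CPM in untreated libraries. All lipoic acid values of MT2A lay above all untreated ones, and the fitted fold was 2.70 (log2 1.43 ± 0.284 SE, edgeR adjusted p = 0.00245). MT1E was at 0.697, 0.696 and 0.677 CPM with lipoic acid and at 0.677, 0.698 and 0.299 CPM without, and was not called (log2 0.30 ± 0.488 SE, adjusted p = 0.636). MT1F had 12, 0 and 4 counts in lipoic acid replicates 1 to 3 and none in untreated libraries, MT1X had 2 counts in lipoic acid replicate 3 alone, and MT3, the brain form, had 4 counts in untreated replicate 3 alone. With even counts halved, MT1F had 8 counts over the lipoic acid libraries and MT1X had 1. MT1A, MT1B, MT1G, MT1H and MT1M had no count in any library.

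Metallothionein genes lie side by side on chromosome 16 and are much alike, and how reads with several alignments were counted was not given. Of the 50-base stretches in annotated transcripts, 3.02% of those of MT2A and 7.1% of those of MT1E also occur in transcripts of other genes, and in the MT1 genes without a test the share ran up to 19% (MT1B), there through an overlapping annotated gene. The values of single metallothionein genes are therefore uncertain. MTF1, the factor that acts on them, was at 10.8, 9.94 and 11.2 CPM in lipoic acid libraries and 15.5, 10.3 and 12.0 CPM in untreated libraries. Lipoic acid replicates 1 and 3 lay within the untreated range and MTF1 was not called (log2 -0.25 ± 0.162 SE, adjusted p = 0.232). MTF1 was called lower without untreated replicate 2 (edgeR adjusted p = 0.0485) and after correction for GC content and length (0.0463). In the libraries of even counts its log2 fold change was -0.54, but the only untreated library among them is replicate 1, the highest for MTF1.

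The promoters of MT2A and SLC30A1 are shown because both genes are textbook targets of MTF1 and moved in opposite directions, and that of MT1X because it is of the same kind as that of MT2A while the gene had almost no counts. Windows run from 250 bases before to 50 bases after the start site in RefSeq (GRCh38.p14), read 5′ to 3′ on the gene's strand. Capitals mark the core of the metal response element to which MTF1 binds, TGCACNC or TGCGCNC, searched on both strands with overlapping matches counted each. MT2A is at chr16:56608334-56608633 on the plus strand, MT1X at chr16:56682220-56682519 on the plus strand, and SLC30A1 at chr1:211579112-211579411 on the minus strand.
MT2A: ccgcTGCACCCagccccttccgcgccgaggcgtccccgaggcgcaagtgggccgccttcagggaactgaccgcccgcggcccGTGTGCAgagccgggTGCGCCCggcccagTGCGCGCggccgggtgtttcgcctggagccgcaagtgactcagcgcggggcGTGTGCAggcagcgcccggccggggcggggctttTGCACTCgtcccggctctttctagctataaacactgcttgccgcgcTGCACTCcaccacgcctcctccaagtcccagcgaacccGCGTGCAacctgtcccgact
MT1X: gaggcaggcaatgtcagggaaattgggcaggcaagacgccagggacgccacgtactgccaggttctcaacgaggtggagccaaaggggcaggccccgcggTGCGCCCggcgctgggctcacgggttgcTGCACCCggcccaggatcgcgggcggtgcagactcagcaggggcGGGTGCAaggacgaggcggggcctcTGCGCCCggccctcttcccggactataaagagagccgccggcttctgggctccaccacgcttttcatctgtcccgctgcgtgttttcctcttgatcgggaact
SLC30A1: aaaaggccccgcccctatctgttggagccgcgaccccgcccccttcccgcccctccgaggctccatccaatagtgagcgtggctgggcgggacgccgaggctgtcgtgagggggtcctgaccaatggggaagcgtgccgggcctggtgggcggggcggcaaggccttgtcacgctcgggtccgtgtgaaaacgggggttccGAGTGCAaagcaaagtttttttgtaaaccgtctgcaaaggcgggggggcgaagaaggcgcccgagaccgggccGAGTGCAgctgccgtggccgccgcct

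The MT2A window held 8 matches, the MT1X window 4 and the SLC30A1 window 2. Of 35116 RefSeq promoter windows of this length, 29.6% held at least 1 match, 8.6% at least 2, 0.601% at least 4 and 0.0199% at least 8. The MT1H window, of a gene with no count, also held 8. Among members, 26 had a window, 35 windows in all, and 17 of these (48.6%) held a match. The RefSeq start site of SLC30A1 (211579161) lies upstream of the first base of the gene in GENCODE v29 (211578742), and that of MT2A lies inside the gene as GENCODE v29 draws it (from 56608199), so another start would give other letters. A match describes the letters of the window and not binding.

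**Figure D3:**
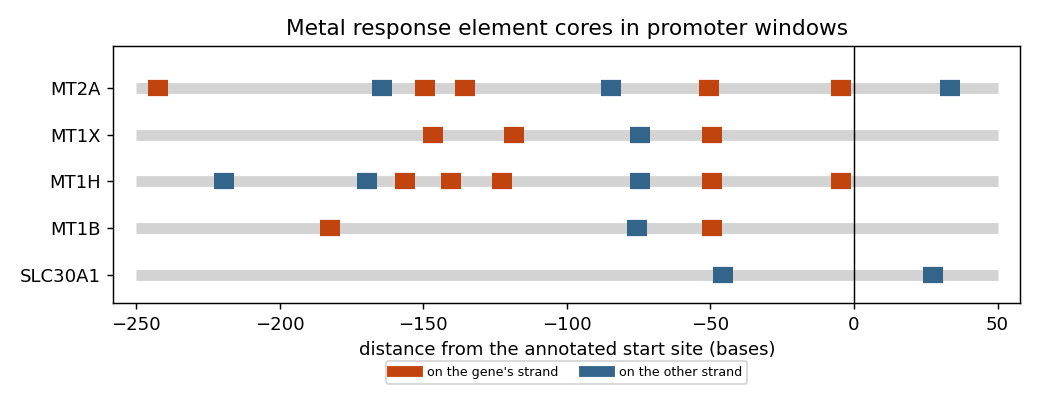
Position of each metal response element core, in bases from the RefSeq start site, in the windows of MT2A, MT1X, MT1H, MT1B and SLC30A1, coloured by strand. MT2A and MT1H each hold 8 matches spread along the window, and SLC30A1 holds 2.

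Levels of different genes were compared per kb of exon (GENCODE v29), on TMM-scaled CPM. The exon length merges all annotated transcripts of a gene, so levels and ranks between genes depend on which transcripts are annotated. SLC39A14 was the highest of the 35 members with lipoic acid, at 33.3 ± 1.23 CPM per kb, and ranked 11 in untreated libraries at 12.0 ± 0.816 CPM per kb (SD, n = 3 each). SLC39A13 ranked 6 with lipoic acid, at 19.6 ± 1.50, and 1 in untreated libraries, at 26.7 ± 1.62 CPM per kb. SLC30A1 ranked 10 with lipoic acid, at 14.4 ± 1.39, and shared rank 2 with SLC39A10 in untreated libraries, at 24.7 ± 0.428 CPM per kb for SLC30A1 and 24.7 ± 2.80 for SLC39A10. Behind SLC39A14 the lipoic acid order was SLC30A9 at 22.5 ± 1.25, SLC39A6 at 21.8 ± 1.64, SLC39A10 at 20.2 ± 2.01 and SLC39A9 next, neighbours that differ by less than their SDs. MT2A reached 4.51 ± 1.27 CPM per kb with lipoic acid and 1.67 ± 0.428 without. Its merged exon length of 1299 bases covers the whole gene from end to end, so these levels are probably too low.

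Summed over each family, the ZIP genes stood at 142, 140 and 144 CPM per kb in lipoic acid libraries and at 116, 125 and 119 CPM per kb in untreated libraries. The ZnT genes stood at 84.2, 86.5 and 87.7 CPM per kb with lipoic acid and at 92.1, 98.7 and 93.5 CPM per kb without. The ratio of the ZIP to the ZnT sum was thus 1.69, 1.62 and 1.64 with lipoic acid and 1.26, 1.27 and 1.27 without. The groups overlapped in each family once 1 gene was left out. These genes, SLC39A14 and SLC30A1, were chosen for their large changes in these same data, so leaving them out shrinks the difference by construction. The genes that remain in each family still include called rises and called falls, which offset each other in a sum. Without SLC39A14 the ZIP sum was 109, 108 and 109 with lipoic acid and 105, 112 and 107 CPM per kb without, and without SLC30A1 the ZnT sum was 69.3, 73.7 and 72.2 with lipoic acid and 67.7, 73.6 and 69.2 CPM per kb without. With both genes left out the ratio was 1.57, 1.47 and 1.52 with lipoic acid and 1.56, 1.53 and 1.54 without, overlapping between the groups. These sums are descriptions, with no test, and hold SLC39A7 at its near-zero counts.

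**Figure D4:**
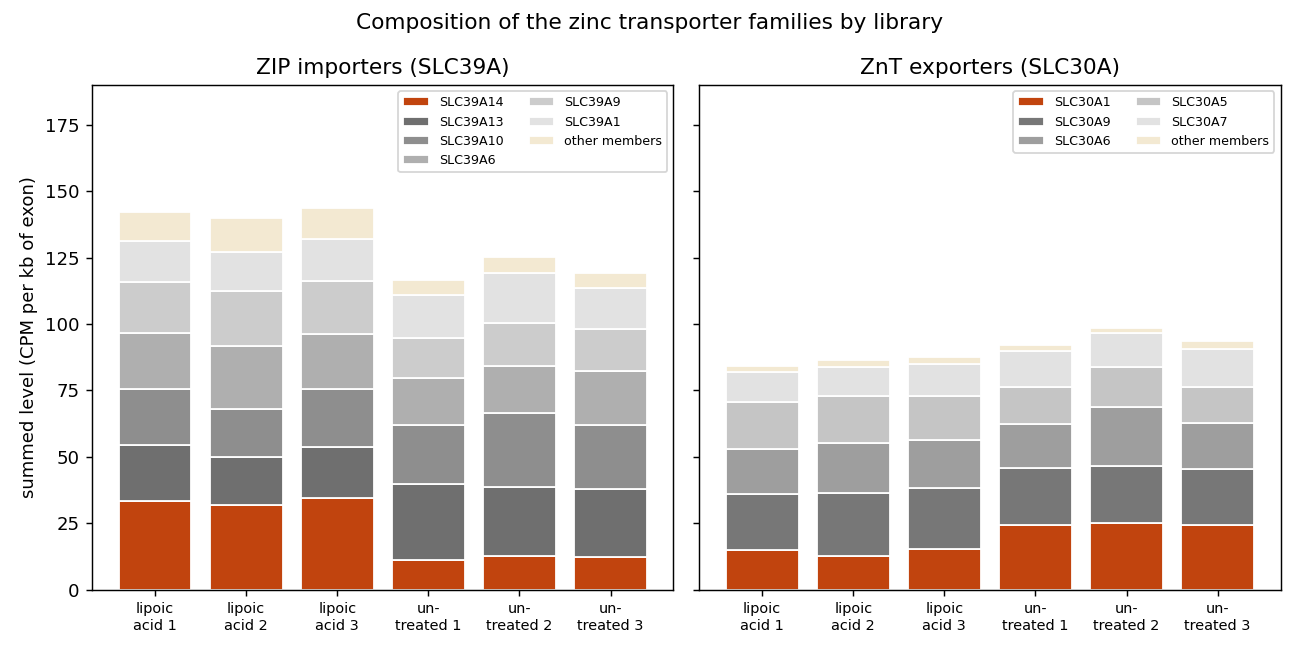
Summed level of the ZIP genes (left) and the ZnT genes (right) per library, in CPM per kb of exon, stacked by gene with SLC39A14 and SLC30A1 in colour. SLC39A14 took 22.8% to 23.9% of the ZIP sum in lipoic acid libraries and 9.52% to 10.2% in untreated libraries, and SLC30A1 took 14.8% to 17.7% of the ZnT sum in lipoic acid libraries and 25.5% to 26.6% in untreated libraries.

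A list of 20 other genes of metal handling (mainly copper, iron and zinc) was measured beside the members. Of these, 19 were in the count table and 17 were tested, of which 4 rose and 6 fell. Over all tested genes 24.2% were called higher and 23.3% lower. The median log2 fold change was -0.14 over the 17 genes and -0.01 over all tested genes. TMEM163, a zinc efflux transporter of vesicles and the plasma membrane, was at 9.76, 10.1 and 11.1 CPM in lipoic acid libraries and 4.06, 3.89 and 2.99 CPM in untreated libraries, a rise of 2.83-fold (edgeR adjusted p = 0.00013). SLC40A1, the iron exporter ferroportin and another target of MTF1 in mouse, was at 80.5, 91.3 and 90.7 CPM with lipoic acid and 127, 147 and 137 CPM without, a fall of 1.57-fold (edgeR adjusted p = 0.000126). SLC31A1, the copper importer CTR1, rose 1.33-fold to 132 ± 2.03 CPM with lipoic acid, against 99.4 ± 5.03 CPM in untreated libraries (SD, n = 3 each, edgeR adjusted p = 0.000485). ATOX1, a copper chaperone, fell 1.42-fold to 28.7 ± 1.48 CPM with lipoic acid, against 40.8 ± 4.44 CPM in untreated libraries (edgeR adjusted p = 0.00157). These 4 genes were named for the lowest p among the called genes of the list. Their lipoic acid and untreated libraries did not overlap, as in 12 of the 17 tested genes of the list and 59.1% of all tested genes.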

How the data were processed

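RNA of 6 libraries (3 lipoic acid, 3 untreated) was analysed from the count table that the authors deposited, raw counts per gene symbol. HISAT2, featureCounts, DESeq2 and hg38 are named per the submitters' processing notes, while their versions and roles, the annotation, the strand setting and the treatment of multi-mapped reads are not given in the sources used here. Groups came from the titles.

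In R 4.3.3, edgeR 4.0.16 kept 13780 genes with filterByExpr, scaled libraries by TMM and tested lipoic acid minus untreated with the quasi-likelihood F test, group as the only term, with Benjamini-Hochberg adjustment over all tested genes and a threshold of 0.05. Levels in CPM are relative to TMM-scaled library sizes. Means carry the SD of the 3 libraries. The steps were tested on simulated data, where 92 of 100 changes of 2-fold and 32 of 100 changes of 1.5-fold were called. Changes of 1.5-fold could thus often be missed at the simulated spread. Alternatives, 16 in all, were other scalings, filters and tests (DESeq2 1.42.0, limma 3.58.1), the replicate number as a block, each library left out, even counts halved, libraries of even counts alone, and a correction for GC content and length. The libraries of even counts are the 3 lipoic acid libraries and untreated replicate 1, so that fit has no untreated replication. Positions and lengths came from GENCODE v29, which held 99.27% of the symbols.

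Members and lists were chosen with earlier results of these data known. Named with values in every library were called members and uncalled members of at least 20 CPM on average. Library values of MT1E and MTF1, and the markers ALB, SERPINA1, CLDN7, EPCAM, LAPTM5 and the blood genes at 0, were added to this rule after their values were seen. Of the other metal-handling genes the 4 called ones with the lowest p were named. The cDNA was amplified and no molecular barcodes are mentioned, so floors and intervals cover counting error alone.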

Additional observations from a re-analysis of the deposited data

How the results depend on the processing

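Over the 16 alternatives, 6 to 9 members were called higher (9 in the fit reported) and 3 to 5 lower (4 in the fit reported). Of the 13 called members 9 were called in the same direction in every alternative, and the exceptions were SLC39A10 and SLC39A6 (lost in 6 alternatives each), SLC30A5 and SLC39A8 (lost after correction for GC content and length). After that correction 41.1% of all calls were rises, against 50.9% before. No direction of a called member reversed. The log2 fold change of uncalled members changed sign for SLC30A4 (-0.0772 with limma voom, -0.0043 with even counts halved, -0.17 after that correction, -0.0845 to 0.14 over single libraries left out), SLC30A6 (0.0348 with limma voom, 0.11 in the libraries of even counts, -0.11 to 0.0943 over single libraries left out), SLC30A9 (-0.10 after that correction) and SLC39A3 (-0.0492 with limma voom), and the cause was not tested. Leaving out 1 library gave 8 to 9 rises and 3 to 4 falls among the members. Same-numbered libraries of the 2 groups deviated together only weakly (correlations of 0.06, 0.06 and 0.08), though each library correlated best with its own number, so the numbers were not taken as pairs. With the replicate block, 9 members were called higher and 3 lower (SLC39A10 had an edgeR adjusted p of 0.0538), 5 and 7 of the other metal-handling genes, and 3354 and 3203 of all genes. MT1E and SLC39A4 did not pass a filter of 1 CPM in all libraries of a group and have no value under it. At this depth metallothionein genes other than MT2A and MT1E, SLC39A7 and SLC30A10 had too few counts for a test.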
